A study of Saccharomyces cerevisiae with 16 samples.

Results

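Polyadenylated 3′ ends were counted at 411 noncoding RNA genes on the nuclear chromosomes of the budding yeast Saccharomyces cerevisiae, out of 6413 genes counted, of which the other 6002 code for proteins. The members were all genes that the RefSeq annotation of the R64 build gives a noncoding type: 275 tRNA genes, 76 snoRNA genes, 21 genes called ncRNA, 12 rRNA genes, 10 pre-rRNA and spacer entries, 7 antisense RNA genes, 6 snRNA genes and the 4 RNAs of larger ribonucleoprotein enzymes (TLC1, SCR1, RPR1 and NME1), named RNP RNAs here. A tag was counted for a member when it lay on the transcript strand inside the gene or up to 200 nt past its end, before the next gene on that strand. In the 14 libraries used, 391 members had at least 1 tag, 20 had none, and 201 had at least 100 tags.

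All libraries come from BY4741, a haploid laboratory strain (Mat a) that carries his3, leu2, ura3 and met15 mutations, grown in the rich medium YPD at 30 °C. For the particle groups, cells were encapsulated in alginate and grew there into microcolonies. The groups are fixed unsorted particles (total, replicates 1, 2 and 3), big colonies (replicates 1, 2 and 3) and small colonies (replicates 2 and 4), all fixed with ethanol, with big and small separated by size in a large-particle flow cytometer. The controls are unsorted particles that were not fixed (nofix, 2 libraries) and batch cultures without particles at Abs600 0.5 (YPD05, 2 libraries) and Abs600 2 (YPD2, 2 libraries). The series' design text speaks of biological replicates but does not tell which cultures or days were shared, so the p-values measure the spread between these libraries. RNA came from whole cultures or pools of colonies, so fewer cells with a transcript and less of it per cell cannot be told apart. The libraries used held 1506960 to 7871184 tags. Small replicate 4 was grouped by its title, although its sample type label reads unfixed, and its barcode was read separately. It stood apart from the rest: 30.7% of its tags ended on a C and 24.0% on a G, against 14.5% to 16.4% and 39.9% to 47.9% in the 13 others.

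In yeast, RNA polymerase II makes most snoRNAs and the spliceosomal snRNAs other than U6, and their transcription commonly ends through the Nrd1-Nab3-Sen1 complex, which reads short motifs in the nascent RNA. The nuclear exosome then trims the longer precursor, helped by the TRAMP complex, which adds a short oligo(A) tail. tRNAs, U6, SCR1, RPR1 and 5S rRNA are made by RNA polymerase III, which stops at a run of T, and the mature forms of none of these RNAs need a poly(A) tail. 3′T-fill reads the ends of RNAs caught by oligo(dT), so it sees tailed forms of such RNAs, and it can also catch RNAs in which the genome itself encodes a run of A.

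The sequences below show where the tags fell at 13 members whose ends carry the pattern described after them. Each gives 20 genome bases up to and including the most used tag position in lower case and the next 10 bases in capitals, 5′ to 3′ on the transcript strand, from the R64 RefSeq genome. TLC1 has a further line for the most used position within 120 nt of its end. The first 3 lines have at least 8 A in the capitals and the others at most 5.
LSR1: tactgctgagagagttctggAAGAGAAAAA
TLC1, inner site: tatcttatcgttaactctggAAAAAGAAAA
YNCP0017C: tgtgttccttttattgaatgAAAAAAAAAA
TLC1, outer site: atcgcgcgtactgtacttgtATATCGCTTT
SNR6: caaagagatttatttcgtttTTTTTTTATC
SNR4: actattaataactgaggctgTATTTTGAAT
SNR81: ttttcacatcttcttgcatgATAAGAGTAG
SNR40: actgtattatgagcaaactgTTTACGTTGA
SNR128: tatactgtagtatcttgtgtTTACTTTATC
SNR73: taatgctgactatttggacgACTCTAATCT
SNR30: atatacacttgtattcagctATATATGTTG
YNCO0011W: gtgtgtgtgtgtgtgtttttCATCCAGTAG
SCR1: catatcagtcggataattgtGCAAGTTGAT
RME2: cgtgatattcctactatgttACTAAATGTT

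The windows are chrII:680951-680980 on the minus strand for LSR1, chrII:308239-308268 and chrII:308788-308817 on the plus strand for TLC1, chrXVI:769068-769097 (minus) for YNCP0017C, chrXII:366326-366355 (plus) for SNR6 and chrV:424864-424893 (plus) for SNR4. They are chrXV:234523-234552 (plus) for SNR81, chrXIV:89350-89379 (plus) for SNR40, chrX:139533-139562 (minus) for SNR128, chrXIII:298456-298485 (plus) for SNR73 and chrXII:199480-199509 (plus) for SNR30. The remaining ones are chrXV:301306-301335 (plus) for YNCO0011W, chrV:442385-442414 (plus) for SCR1 and chrVII:141853-141882 (minus) for RME2.

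The members held 393159 tags in the 14 libraries together. The snRNA genes took 55.4% of them, nearly all at 1 gene, the snoRNA genes 25.2%, the tRNA genes 12.2%, the RNP RNAs 3.33%, the antisense RNAs 2.2%, the ncRNAs 1.25%, and the rRNA genes 0.367%. As a share of a library, all members together took 0.335% to 2.52%. Levels below are CPM, tag counts scaled by library size with the TMM factors of the whole table. Tags mark transcript ends, so the levels are not divided by gene length. How duplicate reads were handled is unknown, so a tag may not stand for a separate transcript. Copies of the rDNA, of RDN5 and of RUF5, and tRNA gene bodies, are near identical and can share or lose tags in alignment, so their values are uncertain.

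**Figure D1:**
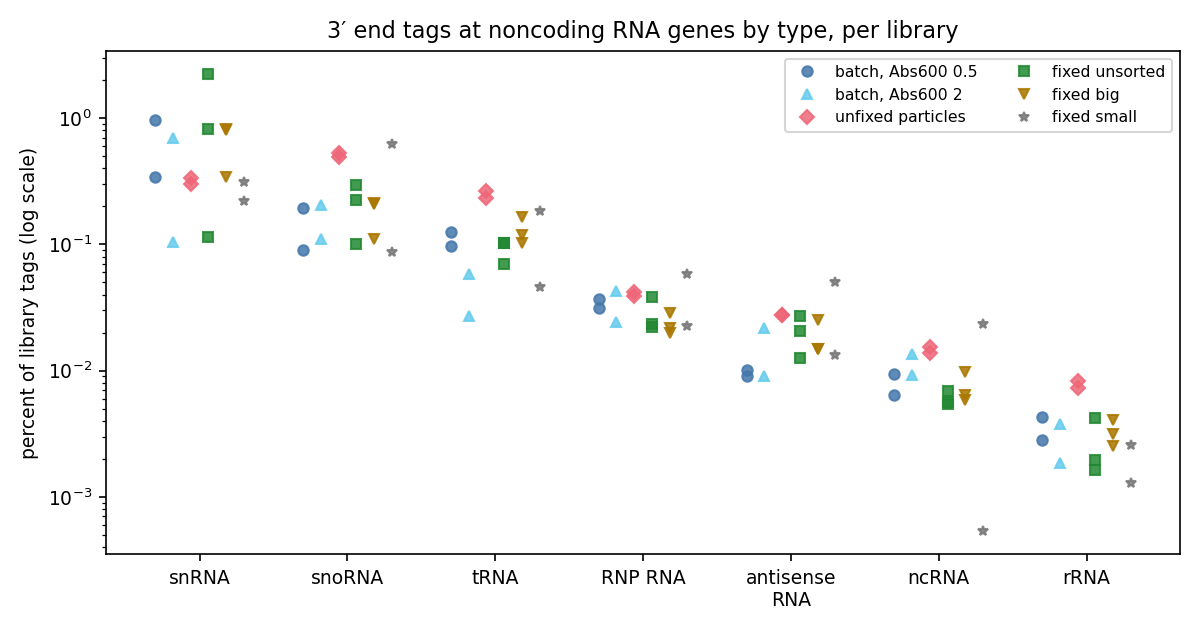
Percent of each library's tags (log axis) at the noncoding genes of 7 types. Each symbol is 1 library of 14, with groups by colour and shape. The 2 unfixed libraries are above all others for tRNA and, except for 1 small-colony library, for snoRNA.

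LSR1, the U2 RNA that pairs with the branch point during splicing, held 215756 tags, 54.9% of those at all members. Of these, 97.3% lay within 3 nt of base 902 of its 1175 bases, 273 nt before the annotated end, where 8 of the next 10 genome bases are A. The coding gene SWC5 ends within 400 nt before LSR1 on the same strand. The level of LSR1 was 3660 and 11200 CPM in batch at Abs600 0.5, 7660 and 1040 at Abs600 2, 3250 and 2760 in unfixed particles, 1010, 29200 and 8390 in fixed unsorted particles, 9200, 3820 and 8380 in big colonies and 3530 and 1720 in small colonies. The highest library was 28.9 times the lowest, and both belong to the fixed unsorted group. No comparison passed the threshold for LSR1, with adjusted p-values of 0.306 to 1 (edgeR quasi-likelihood test).

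The level of LSR1 was set beside the share of A-rich sites among all other tags of a library. That share, the percent of tags outside noncoding genes with at least 7 A in the next 10 genome bases, was 22.4%, 35.6% and 32.9% in the fixed unsorted replicates 1, 2 and 3, and 15.7% to 29.5% in the other 11 libraries. Within 5 of the 6 groups the libraries stood in the same order by LSR1 and by this share, the exception being big colonies. Of these 5 groups, only the fixed unsorted one held 3 libraries. The others held 2 each, where the same order says little. The part of this share in the LSR1 level was not tested.

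**Figure D2:**
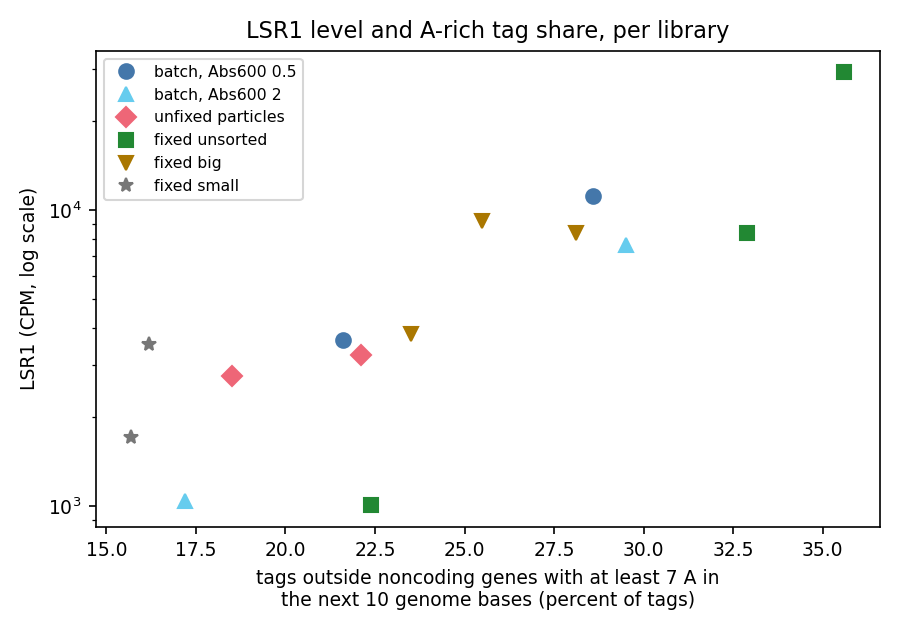
LSR1 level (CPM, log axis) against the percent of tags outside noncoding genes that lie at A-rich sites, 1 symbol per library. Fixed unsorted replicate 2 is highest on both axes, at 29200 CPM and 35.6%.

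The other spliceosomal RNAs were far lower. SNR19, the U1 RNA, ranged from 5.65 to 108 CPM, and its most used position was 58 nt before its end, with 5 A in the next 10 bases. SNR14 (U4) and the long form SNR7-L (U5) stayed at or below 16.9 and 24.7 CPM, and the short form SNR7-S lies inside SNR7-L, so their tags are uncertain. SNR6, the U6 RNA at the heart of the spliceosome, had 78.9% of its 484 tags within 5 nt of its annotated end, beside the run of T shown above. SNR6 stood at 59.5 and 53.7 CPM in unfixed particles, 4.88, 16.4 and 10.7 in fixed unsorted particles, 4.23 and 13.9 in batch at Abs600 0.5 and 1.03 and 2.26 at Abs600 2. It was higher in both unfixed libraries than in all 12 others, but the fitted differences to fixed unsorted particles (-2.43, SE 1.27, adjusted p = 0.319) and to batch at Abs600 0.5 (2.65, SE 1.48, adjusted p = 0.429, both log2, edgeR) did not pass the threshold.

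Tags of snoRNA genes, whose products guide methylation, pseudouridylation and cleavage of ribosomal RNA, lay mostly past the mature RNA. Over the 14 libraries together, 55.6% of the 98994 snoRNA tags lay more than 50 nt past the end, 23.9% 6 to 50 nt past it, 10.5% within 5 nt of it and the rest inside the gene. The share beyond 50 nt was 31.2% in the lowest library and 69.7% in the highest, with a median of 54.7%. Of the 67 snoRNA genes with at least 100 tags, the most used position was a median of 42 nt past the end, more than 50 nt past it at 31 genes and within 5 nt of it at 12.

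By class, H/ACA RNAs, which guide pseudouridylation, had 62.4% of tags beyond 50 nt (28.9% to 74.6% by library) and C/D RNAs, which guide methylation, 51.1% (21.9% to 62.8%). This order turned in small replicate 2, with 28.9% for H/ACA and 55.6% for C/D, and in unfixed replicate 2 both stood at 62.1%. Genes cut from polycistronic precursors had 49.7% of tags 6 to 50 nt past their end, with a lowest library of 13.6% and a median of 43.6%, and SNR128 carried much of this. Without SNR128 the share was 22.7%, and 59.7% of tags lay beyond 50 nt. The 8 RNAs encoded in introns are trimmed from both ends after splicing. Counting stops at another gene on the same strand, here the host gene, so tags past their ends were not counted. Of the tags that were counted, 97.7% lay within 5 nt of the end, a share that does not compare with those of the other classes. Nearly all of these tags belong to SNR18 in the intron of EFB1, at the exact end of which 99.1% of its 696 tags lay. These values are a description of the pooled libraries, in which larger libraries count for more.

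By the mean over 14 libraries, SNR40, a C/D RNA, had the highest level among the snoRNA genes, followed by SNR128, the U14 RNA needed for 18S rRNA maturation, then SNR51, SNR73, SNR86, SNR30, SNR9 and SNR39B. Small replicate 2, with 2120 CPM of SNR40, weighs heavily in this mean. The order was not the same in every library: SNR128 was above SNR40 in big replicate 1, the first batch library at Abs600 0.5 and small replicate 4, where SNR86 stood at 109 CPM. SNR40 had 77.1% of its 14242 tags within 3 nt of a position 63 nt past its end. SNR128 had 84.9% of its 10106 tags within 3 nt of a position 23 nt past its end, and the lower-case part of its sequence above holds TCTTG. SNR73, from the 7-gene snoRNA cluster on chromosome XIII, used a position 63 nt past its end for 47.9% of its tags, and SNR30, an H/ACA RNA needed for 18S rRNA processing, spread its ends, with 90.1% of 3430 tags beyond 50 nt and 9.0% at the most used position.

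7 of the 67 snoRNA genes had most tags within 5 nt of the mature end: SNR4, SNR45, SNR52, SNR18, SNR87, SNR58 and SNR189, a list chosen after its values were seen. SNR4 and SNR45, which guide acetylation of 18S rRNA, had 73.6% and 58.2% of tags there, and RPS26B ends within 400 nt before SNR4. SNR81, an H/ACA RNA that guides modification of 25S rRNA and of U2, had 41.8%. For it, 37.0% of tags lay at 1 position 4 nt before the end. At SNR18, which lies in an intron, tags past the end were not counted.

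**Figure D3:**
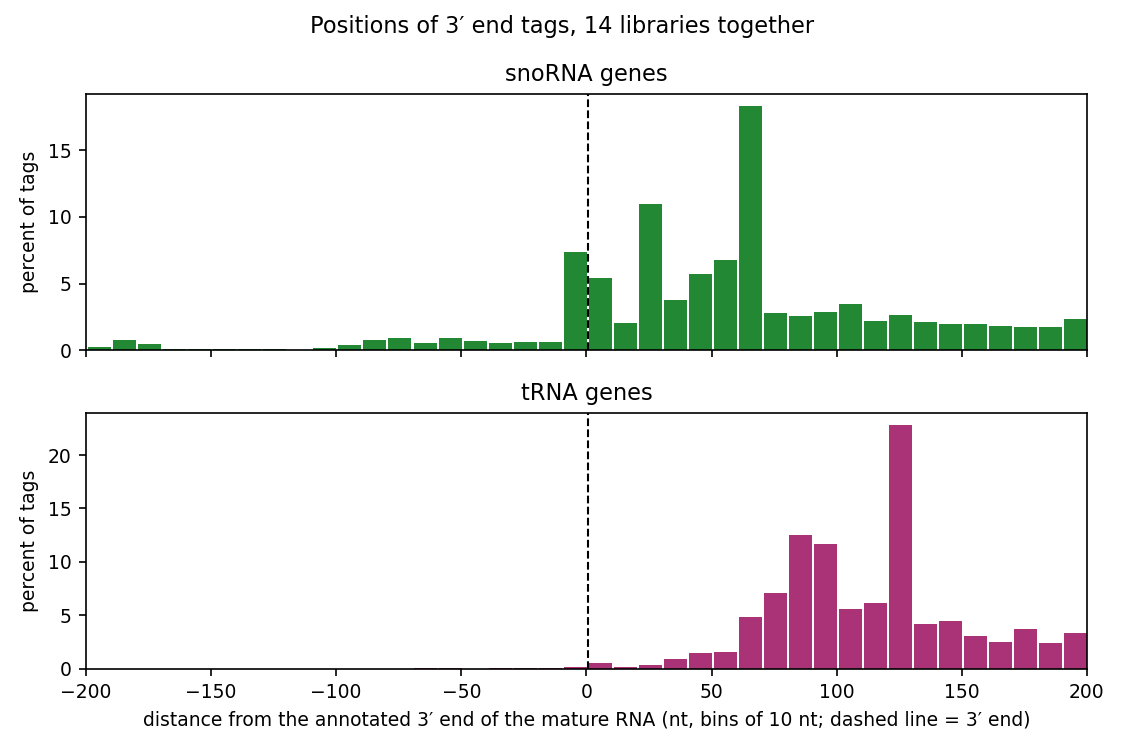
Percent of tags in bins of 10 nt by distance from the annotated 3′ end, for snoRNA genes (top) and tRNA genes (bottom), 14 libraries together. Most snoRNA tags lie past the end, with a smaller part inside the gene, while 96.0% of tRNA tags lie beyond 50 nt.

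At tRNA genes the tags lay further out. Of 48136 tags, 96.0% lay more than 50 nt past the mature tRNA, and in single libraries that share was 87.2% to 98.3%. Of the 103 tRNA genes with at least 100 tags, the most used position was a median of 100 nt past the end, beyond 50 nt at 99 genes and within 5 nt at 0. A tRNA gene with few tags inside it is also what lost alignments of repeated bodies would give, and this was not tested.

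A single tRNA gene, YNCP0017C, a tRNA-Lys gene, held 6733 of these tags, 97.0% of them at 1 position followed by 10 encoded A. YNCO0011W, a tRNA-Pro gene, came next in level with 3454 tags, and its most used position, 127 nt out and after a GT repeat, has 3 A in the next 10 bases. YNCJ0002C (tRNA-Glu), YNCG0038C (tRNA-Arg), YNCN0003W (tRNA-Asn), YNCG0039W (tRNA-Gly), YNCG0003C (tRNA-His) and YNCG0011W (tRNA-His) followed, with a mean over 14 libraries of 59.9 CPM at the first and 24.4 CPM at the last.

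The 200 nt after these genes were set against all sequence outside gene windows, which counts each strand by itself and so takes in the antisense strand of coding genes. The median over 14 libraries was 133 tags per kb, scaled as CPM without TMM factors, after snoRNA genes and 19.5 after tRNA genes, against 3.18 outside the windows of all genes, a ratio of 41.8 for snoRNA and 6.13 for tRNA genes. Before the genes it was 5.19 at snoRNA and 3.8 at tRNA genes. After snoRNA genes the lowest library stood at 57.8 and the highest at 421, after tRNA genes these were 4.82 and 50.4, and the highest library outside all windows stood at 8.28. In small replicate 4 the value after tRNA genes (8.59) was close to that outside all windows (8.28) and below that before tRNA genes (10.9).

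Motifs known from termination were counted on the sense strand only in the 200 nt after each gene. TCTTG, a Nab3 motif that contains the shorter CTTG, occurred in 57.4% of the windows of 68 snoRNA genes outside introns, 19.6% of the 275 tRNA windows and 20.7% of the 6002 protein-coding windows. It occurred in 74.1% of H/ACA and 46.3% of C/D windows. CTTG alone was found in 73.5%, 44.7% and 46.1% of snoRNA, tRNA and protein-coding windows. GTAG or GTAA, the Nrd1 motifs, occurred in 79.4%, 75.3% and 77.7%, and in 88.9% of H/ACA and 73.2% of C/D windows. Their mean number per window differed more, at 2.06, 1.34 and 1.55 in snoRNA, tRNA and protein-coding windows. TATATA, the efficiency element of mRNA cleavage, occurred in 26.5%, 21.8% and 48.3%, and lay in the 60 nt before 8.27% of snoRNA tags, 20.2% of tRNA tags and 30.8% of protein-coding tags. These are matches of letters and not binding sites.

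The RNP RNAs had most tags inside the gene, 74.4% to 97.7% by library. TLC1, the telomerase RNA, has a tailed precursor as well as a mature form without a tail. It had 8709 tags, 33.8% of them within 3 nt of base 672, where 9 of the next 10 bases are A, and 23.1% within 3 nt of base 1221, 80 nt before its annotated end, with 2 A. SCR1, the RNA of the signal recognition particle, had 12.9% of 2621 tags within 5 nt of its end . RPR1, the RNA of RNase P, had 61.7% of 1227 tags inside and 25.3% 6 to 50 nt past its end. NME1, the RNA of RNase MRP, had 46.6% of 528 tags within 5 nt of its end.

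Among regulatory RNAs, RME2, transcribed antisense to the meiotic gene IME4, led with 5933 tags, of which 89.5% lay 6 to 50 nt past its end. The open reading frame YGL193C overlaps it on the same strand, so transcripts of the 2 cannot be told apart. RME2 stood at 51.2 and 78.3 CPM in batch at Abs600 0.5 and at 85.9 and 180 CPM at Abs600 2. SRG1, whose transcription across the SER3 promoter represses SER3 in rich medium, had 1504 tags, 97.3% of them inside the gene, and SER3 overlaps it on the same strand. IRT1, made upstream of the meiotic regulator IME1, had 266 tags and RUF20 had 371. RME3, ICR1, PWR1, HRA1, RUF21, RUF22 and ZOD1 were too low to be tested, with 1 to 169 tags in all libraries together. The rRNA genes held 1442 tags, led by RDN5-1.

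**Figure D4:**
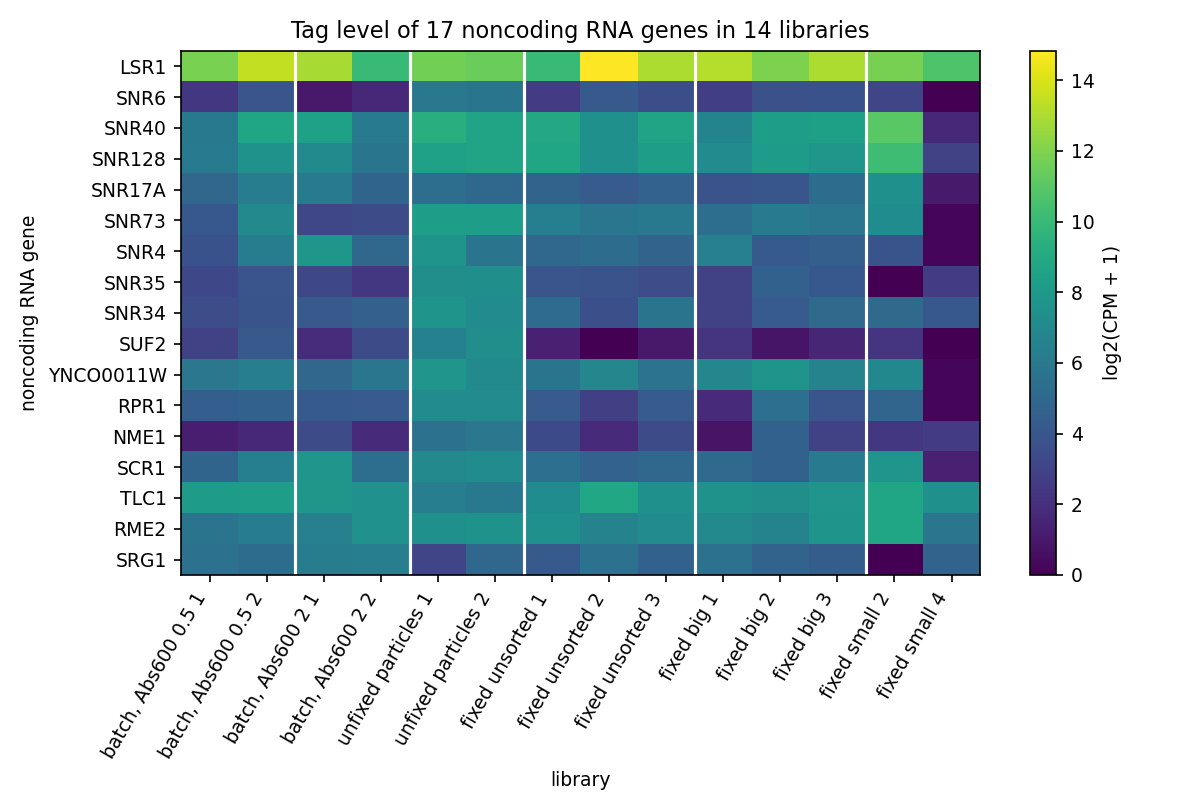
Level of 17 noncoding genes (rows) in 14 libraries (columns, grouped by white lines) as log2(CPM + 1). LSR1 is the brightest row, RPR1, NME1, SNR35, SNR34 and SUF2 are brightest in the 2 unfixed libraries, and small replicate 4 is dark for most snoRNA genes.

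For comparisons, 242 of the 411 members passed the filter on low counts and were tested with edgeR among 5777 features, with Benjamini-Hochberg adjustment over all of them and a threshold of 0.05. They were 141 tRNA, 69 snoRNA, 12 ncRNA, 6 snRNA, 5 antisense, 4 RNP RNA and 3 rRNA genes and 2 pre-rRNA entries. The remaining 169 members had too few tags. The filter also keeps members that are high in a single group, so counts and medians below describe the tested members only. It kept 5535 of the 6002 protein-coding genes, a larger part than of the members. Shares of members and of all features below are therefore not on the same footing.

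Unfixed particles held a larger share of tags at snoRNA and tRNA genes than fixed unsorted particles, but not at all noncoding genes together. All members took 1.22% and 1.12% of the unfixed libraries and 0.571%, 2.52% and 1.16% of the fixed unsorted ones, so these overlap. Without LSR1 the shares were 0.9% and 0.832% against 0.463%, 0.266% and 0.349%. snoRNA genes took 0.533% and 0.493% of the unfixed libraries, against 0.297%, 0.1% and 0.224% of the fixed unsorted ones. tRNA genes took 0.267% and 0.231% against 0.102%, 0.102% and 0.0699%. The groups did not overlap for either type, nor did they between the unfixed libraries and the 10 others outside small colonies, in which snoRNA genes took 0.0899% to 0.297% and tRNA genes 0.0273% to 0.166%. Intervals of 95% on these shares (Wilson) cover counting error only and take each tag as independent. They reach at most 5.05% of the snoRNA share and 6.61% of the tRNA share on either side. The separation from the 10 others depended on the window. Without tags past the gene, their highest library was at 0.0854% for snoRNA and 0.00192% for tRNA genes. The lower unfixed library was then at 0.0717% and 0.00132%. With 50 nt, the groups overlapped for tRNA genes, at 0.0112% against 0.011%, but not for snoRNA genes.

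Gene by gene, 4 of the 242 tested members were lower in fixed unsorted than in unfixed particles and 0 were higher, where 5.4% of all features were called, 3.2% as higher and 2.2% as lower. The median log2 fold change was -1.27 over the tested members, -1.28 over snoRNA and -1.36 over tRNA genes, against 0.02 over all features, and 184 of the 242 were negative. The libraries of the groups did not overlap, with the fixed ones lower, at 103 of the 242 (42.6%) and at 24% of all features. With the fixed ones higher, this held for 23 (9.5%) and for 23.8% of all features. 68 of the 242 (28.1%) were higher in both unfixed libraries than in all 10 libraries outside small colonies, among them 27 of 69 snoRNA and 33 of 141 tRNA genes, against 12.7% of all features. The filter can keep a member through the unfixed libraries alone, so these shares are no test of the difference. Without the filter the median log2 fold change was -0.9 over members and 0 over all features. The calls rest on few libraries: with any 1 of the 5 libraries left out, 0 or 1 members were called, and calls over all features fell from 312 to between 30 and 166.

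SUF2, a tRNA-Pro gene, stood at 89.8 and 157 CPM in unfixed particles and at 1.56, 0 and 1.03 CPM in fixed unsorted ones. It fell by 6.86 on the log2 scale (SE 1.44, adjusted p = 0.0113, edgeR). All 12 fixed or batch libraries were at 16.6 CPM or lower, and its most used position lay 96 nt past the tRNA. SNR35, an H/ACA RNA that guides pseudouridylation of 18S rRNA, stood at 159 and 164 CPM in unfixed and at 14.2, 12.9 and 10.3 CPM in fixed unsorted particles, a log2 difference of -3.69 (SE 0.89, adjusted p = 0.0231, edgeR). The unfixed libraries were the highest of all 14 here too, with the next at 22.9 CPM.

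The other 2 called members lie near a protein-coding gene. YNCL0034W, a tRNA-Leu gene, starts within 400 nt after ERF2 on the same strand. It stood at 122 and 62.0 CPM in unfixed and 5.07, 3.44 and 4.47 CPM in fixed unsorted particles (log2 -4.37, SE 1.22, adjusted p = 0.0474, edgeR), but at 80.4 CPM in small replicate 2. SNR60, a C/D RNA, overlaps the open reading frame YJL047C-A and follows RTT101, and 99.6% of its tags lay inside it. It stood at 94.3 and 22.1 CPM in unfixed and 3.90, 2.58 and 6.53 CPM in fixed unsorted particles (log2 -3.71, SE 1.02, adjusted p = 0.0433, edgeR). Whether its tags end transcripts of the snoRNA or of the genes beside it cannot be told apart.

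The RNP RNAs did not pass the threshold, although 3 of them were higher in both unfixed libraries than in all fixed unsorted ones. RPR1 stood at 139 and 140 CPM in unfixed particles and at 18.1, 6.03 and 17.9 CPM in fixed unsorted ones (log2 -3.28, SE 1.22, adjusted p = 0.143, edgeR). NME1 stood at 47.1 and 58.5 CPM and at 9.17, 2.58 and 9.28 CPM (log2 -2.87, SE 1.15, adjusted p = 0.179, edgeR). Both RNAs were highest in the unfixed libraries among all 14. TLC1 went the other way, with 81.0 and 64.1 CPM in unfixed and 149, 463 and 174 CPM in fixed unsorted particles (log2 1.85, SE 0.59, adjusted p = 0.0818, edgeR). The unfixed libraries were its lowest of all 14. Tags at A-rich sites, which include the inner site at base 672, made up 11.6%, 81.0% and 60.5% of TLC1 tags in the fixed unsorted replicates and 28.3% and 31.8% in the unfixed ones, and their part in the difference was not tested.

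Other tags outside sense ORFs were also more frequent in unfixed particles. Tags antisense to an ORF made up 3.24% and 2.69% of the unfixed libraries and 0.59% to 1.79% of the other 12. Tags in no gene window made up 9.33% and 7.71%, against 2.95% to 6.08% in the others except small replicate 4, at 10.76%. The part of these in the values at noncoding genes was not tested.

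Some genes for processing and decay of these RNAs were higher in fixed unsorted particles. Of 62 tested members of a list of exosome, TRAMP, termination, end-processing, poly(A)-binding and snoRNP genes, 10 were higher in fixed unsorted than in unfixed particles and 0 lower, where 3.2% of all features were called higher, and the median over the list was 1.26 on the log2 scale, against 0.02 over all features. 6 of the 10 encode snoRNP proteins or assembly factors. The list was chosen with earlier results of these data known, so this count is no independent support. A link to the tags at noncoding genes was not tested. NAF1, an assembly factor of H/ACA particles, stood at 91.3 ± 12.9 CPM (SD, n = 3) in fixed unsorted and 3.70 ± 2.74 CPM (SD, n = 2) in unfixed particles (log2 4.61, SE 0.68, adjusted p = 0.0017, edgeR). AIR1, a zinc knuckle subunit of TRAMP, differed by 5.75 (SE 1.26) and REX4, a putative RNA exonuclease, by 3.66 (SE 0.70), and MTR4, the helicase of TRAMP, by 3.07 (SE 0.75) on the log2 scale, with adjusted p-values of 0.0133, 0.00733 and 0.0235 (edgeR). Of the 13 exosome subunits and cofactors 0 were called, with a median of 1.16. Of the 13 Nrd1-Nab3-Sen1 and termination genes 0 were called, 6 had a negative and 7 a positive log2 fold change, and the median was 0.10.

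**Figure D5:**
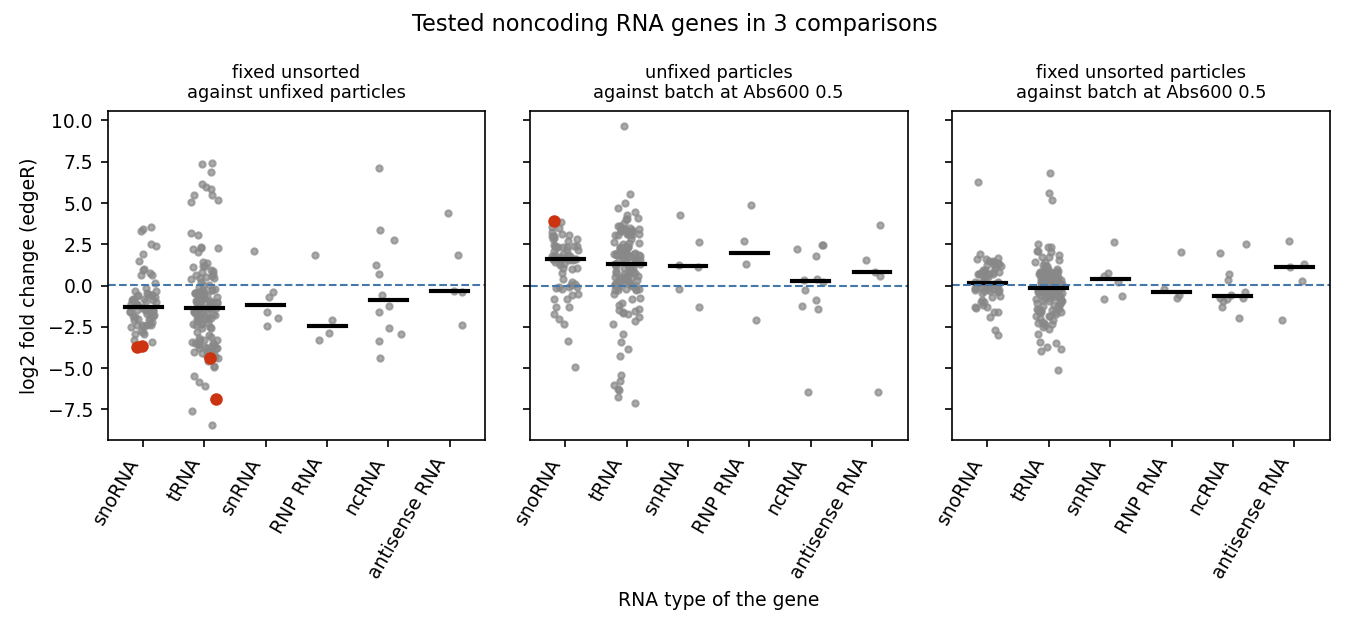
log2 fold change of each tested noncoding gene (points) by type in 3 comparisons, with the median of the type (black bar) and of all features (dashed line). Red points passed the threshold (4, 1 and 0 genes). The snoRNA medians are -1.28, 1.61 and 0.17.

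The same 2 unfixed libraries were set against batch culture at Abs600 0.5, so this comparison is not independent of the one above. 1 of the 242 tested members was higher in unfixed particles and 0 lower, where 1.83% of all features were called, 0.71% as higher. The median log2 fold change was 1.35 over tested members, 1.61 over snoRNA and 1.30 over tRNA genes, against -0.01 over all features. The unfixed libraries were higher without overlap at 109 members (45%) and at 28.8% of all features, and lower at 27 (11.2%) and at 31.4%.

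The called gene was SNR34, an H/ACA RNA that guides pseudouridylation of 25S rRNA and starts within 400 nt after RPS29A. It stood at 207 and 143 CPM in unfixed particles and 10.3 and 13.2 CPM in batch (log2 3.90, SE 0.92, adjusted p = 0.0378, edgeR). Both unfixed libraries were above the other 12, the next being 52.3 CPM in fixed unsorted replicate 3. With any 1 of the 4 libraries left out, no member was called, and calls over all features fell from 106 to between 1 and 20. Of the processing list, 4 of 62 were lower in unfixed particles and 0 higher, where 1.13% of all features were called lower. NAF1 fell by 4.03 (SE 0.69), AIR1 by 5.16 (SE 1.26), REX4 by 2.91 (SE 0.71) and NHP2, a core protein of H/ACA particles, by 2.45 (SE 0.59) on the log2 scale, with adjusted p-values of 0.00988, 0.0489, 0.0452 and 0.0431 (edgeR).

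Fixed unsorted particles and batch culture at Abs600 0.5 gave no called member, and none of all 5777 features was called (0%). An unadjusted p under 0.05 (edgeR) was found at 3 of the 242 members and at 122 of all 5777 features. DESeq2 called 0 members and 0.016% of all features. The median log2 fold change was 0.17 for snoRNA, -0.16 for tRNA and 0.02 for all features. The libraries did not overlap at 26 members (10.7%) with the fixed ones higher and 23 (9.5%) with them lower, against 12.8% and 14.2% of all features. SNR18 was 16.9 and 199 CPM in batch and 8.39, 15.5 and 16.5 CPM in fixed unsorted particles (log2 -3.01, SE 1.36), with 1 batch library far above the rest.

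Batch culture at Abs600 2 held fewer tags past tRNA genes than at Abs600 0.5, with 0.0273% and 0.0582% of tags against 0.0966% and 0.125%. The median log2 fold change was -1.74 over 141 tRNA genes, 0.16 over 69 snoRNA genes and 0.01 over all features. The libraries did not overlap, with those at Abs600 2 lower, at 55 tRNA genes (39%), against 21.7% of all features. The tRNA median was -0.70 without replicate 2 at Abs600 0.5 and -3.10 without replicate 2 at Abs600 2. YNCP0017C stood at 37.5 and 64.1 CPM at Abs600 2 and at 272 and 351 CPM at Abs600 0.5 (log2 -2.61, SE 0.87, adjusted p = 1, edgeR). No member passed the threshold and none of all features did (0%). An unadjusted p under 0.05 (edgeR) was found at 13 of the 242 members, 12 of them tRNA genes, and at 204 of all 5777 features. DESeq2 called 0 members and 0.223% of all features.

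Between big colonies and fixed unsorted particles no member and none of all features (0%) passed the threshold, and DESeq2 also called 0 of either. An unadjusted p under 0.05 (edgeR) was found at 2 of the 242 members and at 52 of all 5777 features. snoRNA genes took 0.11%, 0.21% and 0.213% of the tags in big colonies and tRNA genes 0.103%, 0.166% and 0.119%. The medians were -0.05 for snoRNA, 0.40 for tRNA and 0.01 for all features. The groups did not overlap at 13 members (5.37%) with big colonies higher and at 10 (4.13%) with them lower, against 4.1% and 3.43% of all features.

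Small colonies were set against big colonies with 2 small libraries that differed from each other. snoRNA genes took 0.618% of small replicate 2 and 0.0871% of small replicate 4, the highest and the lowest of all 14 libraries. SNR40 stood at 2120 CPM in replicate 2 and 2.31 CPM in replicate 4, and at 101, 314 and 350 CPM in big colonies, and SNR128 at 1190, 6.52, 140, 276 and 234 CPM in the same order. For both genes, 1 small library lies above and the other below all big ones.

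8 of the 242 members were lower in small than in big colonies and 0 higher, where 1.42% of all features were called, 0.831% as lower. The groups did not overlap at 65 members (26.9%) with small colonies lower and at 6 (2.48%) with them higher, against 16.4% and 10.2% of all features. Of the 8, 6 were tRNA genes and 2 snoRNA genes. YNCG0003C, a tRNA-His gene, stood at 2.51 and 0.703 CPM in small and at 29.0, 72.5 and 40.3 CPM in big colonies (log2 -5.07, SE 1.04, adjusted p = 0.0380, edgeR). SNR31, an H/ACA RNA that guides pseudouridylation of 18S rRNA, stood at 0.628 and 6.22 CPM and at 39.6, 63.7 and 72.8 CPM (log2 -3.93, SE 0.89, adjusted p = 0.0387, edgeR). Neither gene's groups overlapped.

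5 of the 8 had 0 tags in both small libraries, for which a limit of 3 counts in each library gives a mean of 1.09 CPM. This limit covers counting error only and not the spread between small libraries. Against it, small colonies were at least 14.9-fold lower for YNCB0006W (tRNA-Ser), at least 18.1-fold for YNCL0035C (tRNA-Ala), at least 10.2-fold for YNCM0023C (tRNA-Val), at least 18-fold for YNCO0004C (tRNA-Gly) and at least 8.67-fold for SNR87, a C/D RNA. YNCO0004C had 389 tags in the excluded small replicate 3, against 13, 135 and 55 in big colonies, and with small replicates 1 and 3 in the fit its log2 difference turned to 2.95 (adjusted p = 0.396, edgeR). Their levels in big colonies averaged 9.47 CPM at SNR87 to 19.8 CPM at YNCL0035C. YNCN0004W (tRNA-Thr) had 1 tag in the small libraries and 202 in the big ones. The number of members with any tag was 145 in small replicate 2 and 211 in small replicate 4, and 214 to 300 in the other 12 libraries. Of the processing list, TGS1, which adds the trimethylguanosine cap of snRNAs and snoRNAs, fell by 2.09 (SE 0.49, adjusted p = 0.0460, edgeR). It was the 1 member called of the 62. None of the 8 calls held in the fit of these 2 groups alone, nor when any 1 of the 3 big libraries was left out, where none of all features was called either. Without small replicate 2 or 4, 61 and 60 members and 28.5% and 34.3% of all features were called.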

How the data were processed

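3′ end tags of polyadenylated RNA were measured by 3′T-fill in 16 libraries. The values are raw counts per stranded genome position, deposited by the authors with no normalization, and depth is the total count per library. The submitters' processing notes name CASAVA 1.8.2, GSNAP and the builds R64 and sacCer3. Input was 500 to 3000 ng of total RNA, per the labels' protocols. How duplicate reads were handled is unknown. Small replicates 1 and 3, which the submitters excluded, stayed out of the tests.

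The strand was turned because tags lay opposite to the strand given: at 1192 isolated genes 90.5% to 98.3% of tags then lay on the transcript strand. Protein-coding genes were counted up to 400 nt past the ORF. edgeR 4.0.16 (R 4.3.3; quasi-likelihood, robust, TMM, filterByExpr) fitted 14 libraries in 6 groups with 8 residual degrees of freedom. SE is the size of the log2 fold change over the square root of F. The fit was tested on simulated data. DESeq2 1.42.0 was an alternative. Counting used Python 3.11.15, pandas 2.3.3 and numpy 2.4.6, and figures matplotlib 3.10.9.

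The text names up to 10 called members per direction and comparison whose mean reached 5 CPM, up to 8 members per type by level, and fixed sets of RNAs and processing genes. The members and lists were chosen with earlier results of these data known. Alternatives were the count test, scaling, filter, window, A-rich sites, members near ORFs, libraries in the fit, pairing and each replicate left out.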

Additional observations from a re-analysis of the deposited data

Results flagged for a closer look

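The submitters excluded small replicates 1 and 3 for low sequencing quality, and no test above uses them. They held 11821 and 839550 tags. In each, some noncoding types took a larger share of the library's tags than in all 4 batch libraries. Over all noncoding genes small replicate 3 (1.04%) was below the highest batch library (1.35%). In small replicate 1, snRNA genes took 4.27% of tags (95% Wilson interval 3.92% to 4.65%, highest batch library 0.973%), all of it at LSR1, all noncoding genes together 4.67% and snoRNA genes 0.245% (0.171% to 0.352%, highest batch library 0.206%). The interval of this last share includes the batch value. In small replicate 3, tRNA genes took 0.373% (highest batch library 0.125%), snoRNA genes 0.355%, ncRNA genes 0.102%, antisense RNA genes 0.0295% and rRNA genes 0.00893%. Intervals cover counting error only and take each tag as independent. Groups held 2 or 3 libraries, so single libraries were not screened against their group.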

How the results depend on the processing

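The number of members called depended on the libraries and the test. Fixed unsorted against unfixed particles gave 4 calls, 25 with DESeq2, 46 with the libraries of the 2 groups alone, 43 without the small libraries in the fit, 32 with a replicate block, 2 without tags past the gene, 1 with 50 nt, 2 without members near ORFs, and 0 to 1 with a replicate left out. Of all features, 5.4% were called, and 10.6%, 16.4%, 19.6% and 12.4% in the first 4 of these. Unfixed particles against batch at Abs600 0.5 gave 1 call, 17 with DESeq2, 45 with 2 groups, 28 without the small libraries, 50 with a replicate block and 0 with a replicate left out, with 0 or 50 nt, without A-rich sites and without members near ORFs. Abs600 2 against 0.5 gave 0, but 1 with 2 groups, 1 with a replicate block and 11 with the numbers crossed as block, which was added after seeing the data. Small against big colonies gave 8, 36 with DESeq2, 0 with 0 nt, 0 with 50 nt, 0 with 2 groups, 0 with small replicates 1 and 3 added and 0 to 61 with a replicate left out. Without small replicate 2 or 4, 61 and 60 members were called and 28.5% and 34.3% of all features, the remaining library being assumed to vary like the other groups. YNCO0004C reversed to 2.95 with small replicates 1 and 3 added. Of all features, 1.83% were called for unfixed particles against batch at Abs600 0.5. With DESeq2, 2 groups, no small libraries and a replicate block it was 6.65%, 19.4%, 12.4% and 20.5%. For Abs600 2 against 0.5 it was 0%, and 0.269%, 1.27% and 6.3% with 2 groups, a replicate block and crossed numbers. For small against big colonies it was 1.42%, and 10.2% with DESeq2. The other 2 comparisons stayed at 0 members under all alternatives run.

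The snoRNA share in unfixed particles (0.513%) was 0.0785% without tags past the gene, 0.191% with 50 nt, 0.62% without A-rich sites and 0.409% without members near ORFs. The tRNA share (0.249%) was 0.00142% and 0.0116% with 0 and 50 nt. All members (1.17%) took 0.447%, 0.599%, 1.08% and 0.721% in the same 4 settings and 0.866% without LSR1, which was added later. Leaving out a replicate gave 0.493% to 0.533%, 0.231% to 0.267% and 1.12% to 1.22%. Over these alternatives, the snoRNA median of fixed unsorted against unfixed particles stayed between -1.48 and -0.94. The tRNA median there moved more, from -3.28 with 50 nt to -0.8 without the filter on low counts. For unfixed particles against batch at Abs600 0.5, the tRNA median of 1.3 was 0.37 without this filter. The median over all members (1.35) was then 0.61, and that over snoRNA genes (1.61) was 1.58. The small against big median of all features was 0.15, and 0.34 with DESeq2 size factors, 0.01 without small replicate 2 and -0.89 without small replicate 4. The causes were not tested.

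Correlations of same-numbered libraries were -0.177 to 0.174. In comparisons with 2 pairs, both pairs give the same value. Whether the numbers pair the samples by culture or day therefore cannot be told from them. No paired analysis was possible for small against big colonies because they share only number 2.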
